A study of Mus musculus with 6 samples.

Results

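The genes described here encode the core of NODAL signalling: the ligands Nodal and Gdf3, the co-receptor Tdgf1 (Cripto), the receptors Acvr1b and Acvr2b, the signal transducer Smad2, its DNA-binding partner Foxh1, and the secreted inhibitors Lefty1 and Lefty2. They were taken by exact gene name, with every non-control probe, which gave 9 of the 27962 gene names and 10 of the 41174 probes on the array. The cells were mouse embryonic stem (ES) cells, pluripotent cells of the early embryo, from an F1 of 129 and C57BL/6, treated for 48 h with an siRNA against BRG1 or with a scrambled control siRNA. BRG1, encoded by Smarca4, is an ATPase of SWI/SNF complexes, which remodel nucleosomes. Each group had 3 single-colour Agilent arrays, each hybridised with Cy3-labelled cRNA from a start of 500 ng total RNA. The labels name no ES cell line or culture medium and do not say whether replicates were separate cultures, so p-values here rest on array-to-array spread that could be technical only.

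NODAL is a secreted ligand of the TGF-beta family that signals through activin receptors (type I ACVR1B, type II ACVR2A or ACVR2B) together with the co-receptor CRIPTO. The receptors phosphorylate SMAD2 and SMAD3, which bind SMAD4 and, with FOXH1, activate target genes that include Nodal itself and the Lefty genes. LEFTY proteins block NODAL and its co-receptor, so the pathway induces its own inhibitors. The pathway is active in mouse ES cells, and in the embryo it directs mesendoderm and left-right patterning.

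The measurement of each gene rests on 1 probe of 60 bases, except for Acvr1b, which has 2. The Lefty1 and Lefty2 proteins are close relatives, so the first 30 bases of both probes, 5′ to 3′, are shown with the longest run that the whole probes share in capitals. That run is 7 bases long, and both Lefty probes contain 43.3% G and C. The first 30 bases of the Nodal probe follow, since Nodal is the ligand among the 9 genes that passed the test given below. The whole Tdgf1 probe is also shown, since Tdgf1 has annotated pseudogene copies (Tdgf1-ps1 and Tdgf1-ps2) that its probe may also read.
Lefty1: ctttcatgcaaatctgaAGTGCTCattata
Lefty2: ttgtcctaacttAGTGCTCtcgtcagacct
Nodal: ttattagattataaacgagccatttggttc
Tdgf1: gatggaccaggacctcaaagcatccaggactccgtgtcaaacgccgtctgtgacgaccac
In the mm7 build used by the file headers, the Lefty1 probe lies on the plus strand at chr1:180917655-180917714 and the Lefty2 probe at chr1:180877495-180877554. The Nodal probe lies on the plus strand at chr10:60942629-60942688 and the Tdgf1 probe on the minus strand at chr9:110638452-110638511. No mm7 exon annotation was used, so probes are placed by coordinate only.

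In cells given BRG1 siRNA, the Lefty genes fell to 54.5% (Lefty1) and 55.5% (Lefty2) of the control signal, and Nodal rose 1.26-fold. The other 6 genes, Gdf3, Tdgf1, Acvr1b, Acvr2b, Smad2 and Foxh1, did not pass the test. All 9 were well above background on all 6 arrays. Thus 3 of 9 passed (1 raised, 2 lowered) in a fit with limma over all 17758 genes tested (Benjamini-Hochberg adjusted p under 0.05), where the background rate was 23.3% (9.87% raised and 13.4% lowered). A share of 3 in 9 is not far from that rate, so the count itself is no result about these genes.

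The number of arrays limits the precision. Spots well above background made up 60.9% to 70.9% on BRG1 siRNA arrays and 64.8% to 75.3% on control arrays. Smarca4, the siRNA's target, was lower with all 3 of its probes, at 54.7% to 66.2% of the control signal. BRG1 siRNA replicates 2 and 3 were on a second slide, and the first slide held BRG1 siRNA replicate 1 and the 3 controls. A value with slide in the fit therefore sets BRG1 siRNA replicate 1 against the 3 controls on the same slide. The 11 ES cell markers measured were well above background on all 6 arrays. The log2 of their summed linear signals was 8.87 to 8.93 on BRG1 siRNA arrays and 8.86 to 8.88 on control arrays. Summed signals of the other lists are given in the same way, and the brightest markers weigh most in each sum. Of the 11 ES cell markers 4 rose (Utf1, Nanog and Klf4 among them) and 1 fell (Pou5f1, to 79.8% of the control signal). Of all genes, 23.3% passed the test in either direction. These marker calls depended on the scaling. With scaling to each array's median, Utf1, Nanog, Klf4 and Pou5f1 did not pass (limma adjusted p = 0.0840, 0.0553, 0.0931 and 0.203). With scaling on spike-in probes Utf1, Nanog and Klf4 passed, but Pou5f1 did not (log2 -0.13, limma adjusted p = 0.430). Fibroblast markers had lower summed signals, 3.57 to 3.64 on BRG1 siRNA arrays and 4.07 to 4.19 on control arrays. Of these markers 7 of 11 tested passed, all lower, against 13.4% of all genes lowered. The largest fall was in S100a4, with a mean log2 signal of 1.67 with BRG1 siRNA and 2.76 in controls. Col1a2, Col5a1, Dcn and Postn did not pass (log2 0.0061, -0.021, -0.19 and -0.040). With scaling on spike-in probes S100a4, Thy1 and Col3a1 passed, but Col1a1, Pdgfrb, Twist2 and Fbn1 did not (limma adjusted p = 0.350, 0.696, 0.429 and 0.552). Primitive endoderm markers summed to 0.67 to 0.69 and 0.83 to 0.94 (2 of 9 fell), trophectoderm markers to 6.48 to 6.56 and 6.28 to 6.48 (2 rose and 3 fell of 9), and neural markers to 3.57 to 3.67 and 3.63 to 3.66 (1 of 6 fell), BRG1 siRNA first. The shares of 2 in 9 and 1 in 6 are not far from the 13.4% of all genes lowered at these list sizes. Of the trophectoderm markers 5 of 9 passed, against 23.3% of all genes in either direction. Cdx2, Eomes and Krt7 fell, and Tfap2c and Hand1 rose. Krt8 and Krt18, the brightest trophectoderm markers, weigh most in that sum and did not pass (log2 0.11 and 0.15, limma adjusted p = 0.383 and 0.138). Among the markers, Afp, Elf5 and Olig2 were not well above background on any array. The part of other cell types in the results below was not tested, and in these bulk samples fewer cells of a type and less RNA per cell cannot be told apart.

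**Figure D1:**
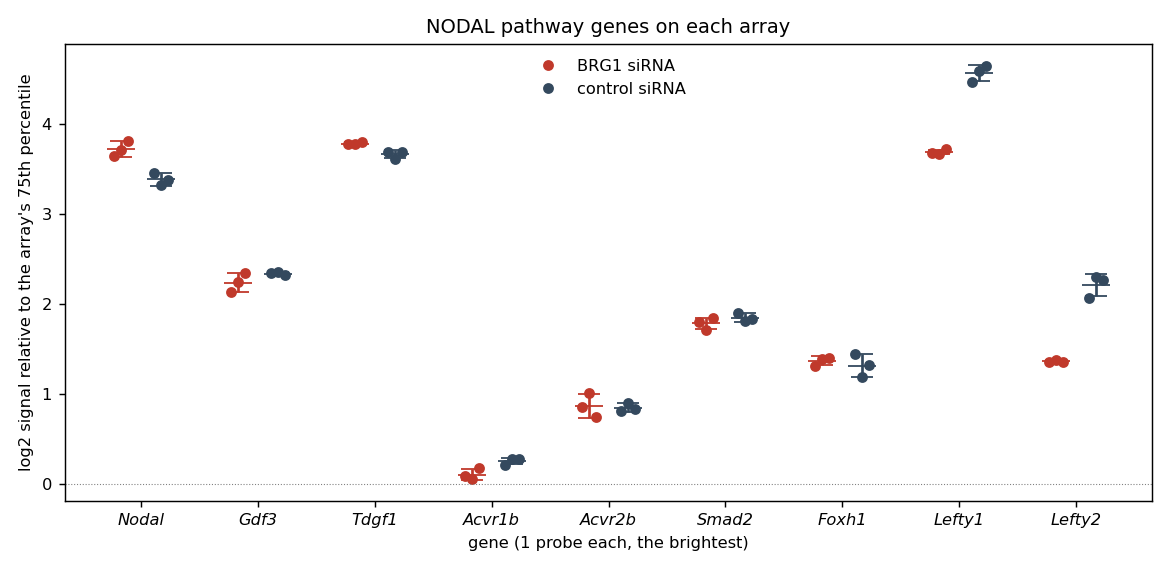
Log2 signal of the brightest probe of each gene on every array, scaled to that array's 75th percentile, with BRG1 siRNA left of control siRNA; points are arrays and bars the mean and SD of 3. The Lefty1 and Lefty2 points separate widely between groups, Nodal is higher on all 3 BRG1 siRNA arrays, and Gdf3, Acvr2b, Smad2 and Foxh1 overlap.

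Signals below are log2 values scaled to each array's 75th percentile (non-control spots). They compare arrays for 1 probe and say nothing of the level of 1 gene against another. Lefty1, which encodes a secreted inhibitor of NODAL, had a log2 signal of 3.68, 3.67 and 3.72 on BRG1 siRNA arrays 1, 2 and 3, against 4.47, 4.59 and 4.65 on control arrays 1, 2 and 3. The groups were 0.75 apart at their nearest arrays, and the SD was 0.026 over the BRG1 siRNA arrays, against 0.092 over the controls (n = 3 each). The log2 change was -0.88 ± 0.058 (SE; 95% confidence interval -1.02 to -0.73; limma adjusted p = 0.00141). Of the 17758 genes tested, 257 had a more negative change.

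Lefty2, the neighbouring paralog with the same inhibitory role, had a log2 signal of 1.35, 1.38 and 1.35 on BRG1 siRNA arrays, against 2.07, 2.29 and 2.27 on control arrays. The groups again did not overlap, with a gap of 0.69 between the nearest arrays. The log2 change was -0.85 ± 0.069 (SE; 95% confidence interval -1.02 to -0.68; limma adjusted p = 0.00208), and 289 genes had a more negative one. With slide in the fit the changes were -0.88 for Lefty1 and -0.86 for Lefty2 (limma adjusted p = 0.0242 and 0.0301), where the background rate was 7.84%. With slide 1 alone neither call held (limma adjusted p = 0.0618 and 0.0699).

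Nodal, the ligand that gives the pathway its name, had a log2 signal of 3.64, 3.71 and 3.81 on BRG1 siRNA arrays, against 3.46, 3.32 and 3.37 on control arrays. Every BRG1 siRNA array was above every control array, with 0.18 between the nearest. The log2 change was 0.34 ± 0.064 (SE; 95% confidence interval 0.18 to 0.50; limma adjusted p = 0.0177), and 1092 genes had a more positive one. Nodal did not pass with slide in the fit (log2 0.26, limma adjusted p = 0.124), nor with any 1 of 3 arrays left out: BRG1 siRNA replicate 2 (limma adjusted p = 0.0652), control replicate 2 (0.0725) or control replicate 3 (0.0766). The sign was positive in all 21 alternatives run, and the call held in 14 of them. Some alternatives, such as the deposited values, other filters and other eBayes options, leave the log2 change at 0.34 by construction. Those do not test the sign.

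**Figure D2:**
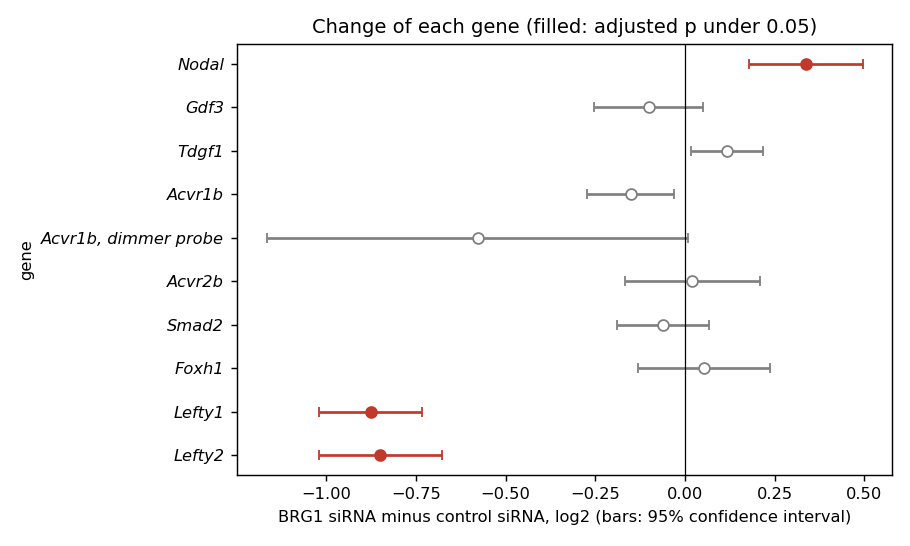
Log2 change (BRG1 siRNA minus control siRNA) of each gene by role, with 95% confidence intervals; filled points passed the test. Lefty1 and Lefty2 lie at -0.88 and -0.85 with intervals clear of those of the brightest probes of the other genes, Nodal lies at 0.34, and the dimmer Acvr1b probe has the widest interval.

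Gdf3, a second ligand of the family that uses the same co-receptor, had a log2 signal of 2.13, 2.24 and 2.34 on BRG1 siRNA arrays, against 2.34, 2.35 and 2.32 on control arrays. BRG1 siRNA replicate 3 lay among the controls and the other BRG1 siRNA arrays below them. The log2 change was -0.10 ± 0.062 (SE; 95% confidence interval -0.25 to 0.051; limma adjusted p = 0.286).

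Tdgf1, the co-receptor through which NODAL and GDF3 reach their receptors, had a log2 signal of 3.77, 3.77 and 3.80 on BRG1 siRNA arrays, against 3.69, 3.62 and 3.68 on control arrays. The groups did not overlap, although the gap was only 0.081. The log2 change of 0.12 ± 0.041 (SE; 95% confidence interval 0.017 to 0.22) did not pass the test (limma adjusted p = 0.0911). It passed with quantile normalization (0.17, limma adjusted p = 0.0233) and with scaling on spike-in probes (0.32, limma adjusted p = 0.0358).

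Acvr1b, the type I receptor also known as ALK4, had a log2 signal of 0.088, 0.055 and 0.17 with its brighter probe on BRG1 siRNA arrays, against 0.22, 0.28 and 0.28 on control arrays. The groups were 0.042 apart, and the log2 change of -0.15 ± 0.049 (SE; 95% confidence interval -0.27 to -0.031) missed the threshold (limma adjusted p = 0.0769). Without BRG1 siRNA replicate 3 it passed (-0.19, limma adjusted p = 0.0441), and with scaling on spike-in probes its sign turned (0.047). The dimmer Acvr1b probe, at chr15:101196853-101196910, was well above background on 1 of 3 BRG1 siRNA arrays and on 3 of 3 control arrays. Its log2 signal was -5.43, -5.51 and -4.93 on BRG1 siRNA arrays, against -4.29, -5.00 and -4.84 on control arrays, and the groups overlapped. Its log2 change of -0.58 ± 0.24 (SE) did not pass among the 26258 probes tested on their own (limma adjusted p = 0.146). In that fit 3 of the 10 probes passed, where the background rate was 19.6%.

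Acvr2b, a type II receptor for NODAL and activin, had a log2 signal of 0.85, 1.01 and 0.75 on BRG1 siRNA arrays, against 0.81, 0.90 and 0.83 on control arrays, so the control values lay inside the range of the BRG1 siRNA arrays. The log2 change was 0.021 ± 0.076 (SE; 95% confidence interval -0.17 to 0.21; limma adjusted p = 0.871), and the sign turned with normexp background correction and without BRG1 siRNA replicate 2 (-0.049). The Acvr2b probe maps to chr9:119108757-119110112, a span of 1356 bases for 60 bases of probe, so it crosses at least 1 splice junction.

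Smad2, which carries the receptor signal to the nucleus, had a log2 signal of 1.80, 1.72 and 1.84 on BRG1 siRNA arrays, against 1.90, 1.81 and 1.83 on control arrays. Its log2 change was -0.061 ± 0.052 (SE; 95% confidence interval -0.19 to 0.068; limma adjusted p = 0.440). Foxh1, the forkhead factor that brings SMAD2 complexes to target genes, had a log2 signal of 1.31, 1.39 and 1.40 on BRG1 siRNA arrays, against 1.44, 1.19 and 1.32 on control arrays, where the controls spread more widely. Its log2 change was 0.053 ± 0.074 (SE; 95% confidence interval -0.13 to 0.24; limma adjusted p = 0.642). Across the 6 genes that did not pass, the intervals of the brightest probes reached from -0.27 to 0.24. On the 75th percentile scale, a fall as large as that of either Lefty gene thus lay outside each of them. A p that misses the threshold does not show that a gene was unaffected. Of the 9 genes, 5 had groups that did not overlap, against 44% of all genes tested. Nodal and Tdgf1 were the 2 with every BRG1 siRNA array higher (18.9% of all genes), and Lefty1, Lefty2 and Acvr1b the 3 with every one lower (25.1% of all genes).

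**Figure D3:**
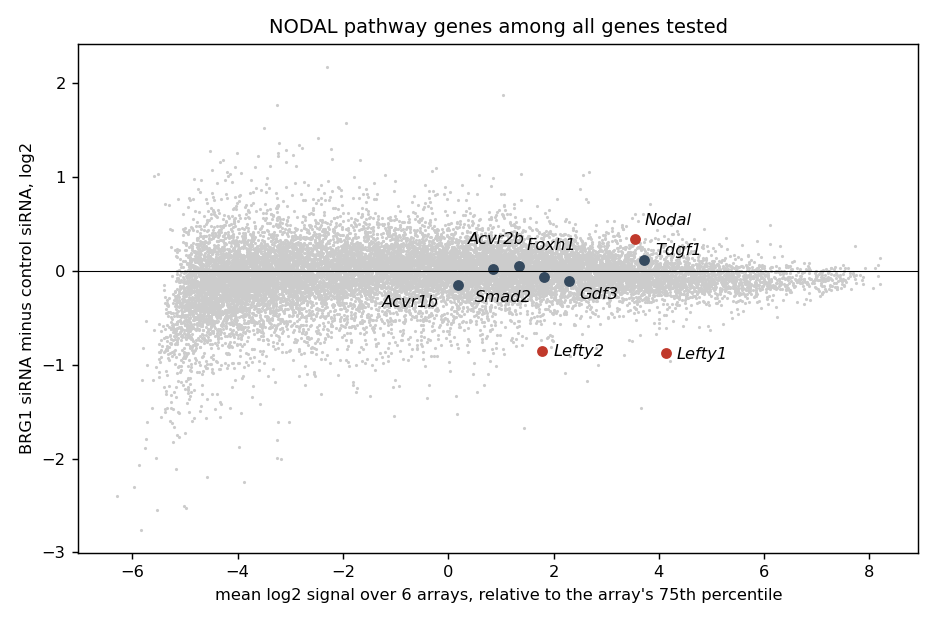
Log2 change (BRG1 siRNA minus control siRNA) against the mean log2 signal of each of the 17758 genes tested (grey), with the NODAL pathway genes marked (red: adjusted p under 0.05; blue: not). Lefty1 and Lefty2 sit at -0.88 and -0.85, with 257 and 289 genes below them, and Nodal sits above 0 at 0.34.

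Lefty2 and Lefty1 are close neighbours on chromosome 1: the starts of their probes are 40.2 kb apart in mm7. Some of the flanking genes are given next, with gene order from the GRCm38.p6 annotation. They were named after their values were seen. Tmem63a, a membrane channel gene beyond Lefty1, fell by 0.32 on the log2 scale (limma adjusted p = 0.0142). Beyond Lefty2, Sde2 had a log2 change of 0.038 (limma adjusted p = 0.530), and H3f3a, a histone H3.3 gene with near-identical copies, fell by 0.22 on the log2 scale (limma adjusted p = 0.0261). Ephx1, beyond Tmem63a, had a log2 change of -0.020 (limma adjusted p = 0.766). Both Lefty genes thus had larger changes than these 4 genes, and whether they differ from them was not tested.

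Other genes of the pathway were taken from 5 lists, which were chosen with earlier results of these data known. The lists hold 51 genes in all, of which 44 were tested. Of these, 6 rose and 12 fell, or 18 of 44 (40.9%), against 23.3% of all genes tested. Since the lists were so chosen, that contrast is a description and not a test. The median log2 change of the 44 was -0.093, against -0.037 over all genes. With slide in the fit 8 of the 44 passed, against 7.84% of all genes, and 6 of the 8 were in the list of target genes. In that fit no ligand or receptor passed. Of the SMADs and nuclear regulators 2 of 15 passed, and of the extracellular inhibitors 1 of 5 (Skil counts in 2 lists). With spike-in scaling the median of the 44 was 0.10, against 0.16 over all genes. Among ligands and their processing enzymes, 2 of 9 rose and 2 fell, and the median was -0.0012. Gdf1, a ligand that partners NODAL in the embryo, had a log2 signal of 3.02, 2.99 and 3.14 on BRG1 siRNA arrays, against 2.63, 2.51 and 2.56 on control arrays (0.49 ± 0.059 SE, limma adjusted p = 0.00498). Gdf1 shares a transcript with a ceramide synthase gene, so its probe may read both. Inhba, an activin subunit, had a log2 signal of 0.18, 0.29 and 0.045 on BRG1 siRNA arrays, against 0.70, 0.74 and 0.65 on control arrays (-0.53 ± 0.071 SE, limma adjusted p = 0.00658). Inhbb, which encodes the other activin subunit, rose by 0.39 (limma adjusted p = 0.0261), and Furin, a protease that cleaves the NODAL precursor, fell by 0.26 on the log2 scale (limma adjusted p = 0.0161). With slide in the fit none of the 4 passed (limma adjusted p = 0.0529 for Gdf1, 0.0600 for Inhba, 0.139 for Inhbb and 0.0560 for Furin). Inhbb also did not pass without BRG1 siRNA replicate 2 or any 1 control (limma adjusted p up to 0.101), nor Furin without any 1 array but BRG1 siRNA replicate 3 (up to 0.0743). With slide in the fit the log2 change of Inhbb was 0.23. With spike-in scaling Inhba (-0.33, limma adjusted p = 0.0816) and Furin (-0.066, limma adjusted p = 0.575) did not pass, and Furin did not pass with median scaling (-0.21, limma adjusted p = 0.214).

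Among receptors and co-receptors, 1 of 5 passed, with a median of 0.089. Tgfbr1, the type I receptor for TGF-beta, rose by 0.32 ± 0.050 (log2, SE, limma adjusted p = 0.00977), but not without control replicate 3 (limma adjusted p = 0.0542) or with slide in the fit (0.0716). Tgfbr1 also did not pass with median scaling (limma adjusted p = 0.0840). Acvr2a, the other type II receptor of NODAL, had a log2 change of 0.067 (limma adjusted p = 0.482), and Cfc1, a relative of Tdgf1, one of 0.21 (limma adjusted p = 0.541). Acvr1c and Tgfbr3 were below the filter.

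Among SMADs and nuclear regulators, 2 of 15 rose and 4 fell, with a median of -0.12. With spike-in scaling the median was 0.077, none of the 4 falls passed, and both rises did. Smad3, the close relative of Smad2, rose by 0.35 ± 0.061 (log2, SE, limma adjusted p = 0.0134), and Smad4, the partner shared by all receptor SMADs, fell by 0.25 on the log2 scale (limma adjusted p = 0.0140). Smad4 did not pass as the mean of its probes (log2 -0.052, limma adjusted p = 0.553) or with spike-in scaling (-0.049, limma adjusted p = 0.681). Skil, a SMAD repressor that the pathway induces, had a log2 signal of 2.02, 1.96 and 2.09 on BRG1 siRNA arrays, against 2.47, 2.46 and 2.47 on control arrays (-0.44 ± 0.046 SE, limma adjusted p = 0.00356). Pmepa1, a feedback inhibitor that binds receptor SMADs, fell by 0.52 on the log2 scale (limma adjusted p = 0.00477). Ppm1a, a phosphatase that acts on SMAD2 and SMAD3, fell by 0.18 on the log2 scale (limma adjusted p = 0.0248), with its sign turned under spike-in scaling (0.020). Smurf1, a ubiquitin ligase of the pathway, rose by 0.35 (limma adjusted p = 0.0129), but only 0.028 with quantile normalization (limma adjusted p = 0.815) and 0.19 as the mean of its probes (limma adjusted p = 0.0694). Smad3, Ppm1a, Smurf1 and Pmepa1 did not pass with slide in the fit. With 1 array left out, Smad3 did not pass without BRG1 siRNA replicate 1 or 2 or control replicate 2 (limma adjusted p up to 0.0563), Smad4 without BRG1 siRNA replicate 2 or control replicate 2 or 3 (up to 0.0710), and Ppm1a without any 1 array but BRG1 siRNA replicate 3 (up to 0.0973). Skil and Pmepa1 did not pass with spike-in scaling (log2 -0.24 and -0.32, limma adjusted p = 0.0776 and 0.0793). With median scaling Smad3, Smad4, Smurf1 and Ppm1a did not pass (limma adjusted p = 0.0506, 0.259, 0.0569 and 0.501). Smad7, the inhibitory SMAD, had a log2 change of -0.096 (limma adjusted p = 0.281).

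Among extracellular inhibitors other than the Lefty genes, 1 of 5 passed, with a median of -0.12. Fst, which encodes the activin-binding protein follistatin, had a log2 signal of -2.39, -2.47 and -2.34 on BRG1 siRNA arrays, against -1.25, -1.07 and -1.01 on control arrays. The groups did not overlap, with 1.09 between the nearest arrays. The log2 change was -1.29 ± 0.075 (SE, limma adjusted p = 0.00119), a 2.44-fold fall, and Fst also passed with slide in the fit (limma adjusted p = 0.0224). Dand5, Fstl3, Bambi and Tmeff1 had log2 changes of -0.15 to 0.019 and did not pass, and Cer1 and Inha were below the filter.

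Among genes known as targets of NODAL and SMAD2 in the embryo, 1 of 13 rose and 7 fell. That is 61.5% in all, against 23.3% of all genes tested, in a list chosen with earlier results of these data known. The contrast is thus a description and not a test. The median log2 change was -0.44, and -0.24 with spike-in scaling, where the median of all genes was 0.16. Eomes, a T-box factor of mesendoderm and trophoblast, had a log2 signal of -2.99, -2.96 and -3.16 on BRG1 siRNA arrays, against -2.43, -2.38 and -2.32 on control arrays (-0.66 ± 0.067 SE, limma adjusted p = 0.00318). The streak genes T, Fgf8 and Wnt3, which also answer to WNT signals, had log2 changes of -2.01, -1.55 and -0.84 (limma adjusted p = 0.00167, 0.00465 and 0.00141). T was dim, with a log2 signal of -4.18, -4.21 and -4.15 on BRG1 siRNA arrays. Its change was smaller with normexp background correction (-1.42 with the 75th percentile and -1.39 with quantile normalization). Skil and Pmepa1, given above, were also among the 7. Nanog, a pluripotency factor, was the 1 that rose, by 0.41 (limma adjusted p = 0.0138), but did not pass with slide in the fit (limma adjusted p = 0.0771), without BRG1 siRNA replicate 1 (0.0528) or without control replicate 3 (0.0642). Nanog also did not pass with median scaling (limma adjusted p = 0.0553). Gsc, Foxa2, Lhx1, Sox17 and Smad7 had log2 changes of -0.29 to 0.033 and did not pass, and Mixl1 and Cer1 were below the filter. With slide in the fit 6 of the 13 passed, against 7.84% of all genes.

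**Figure D4:**
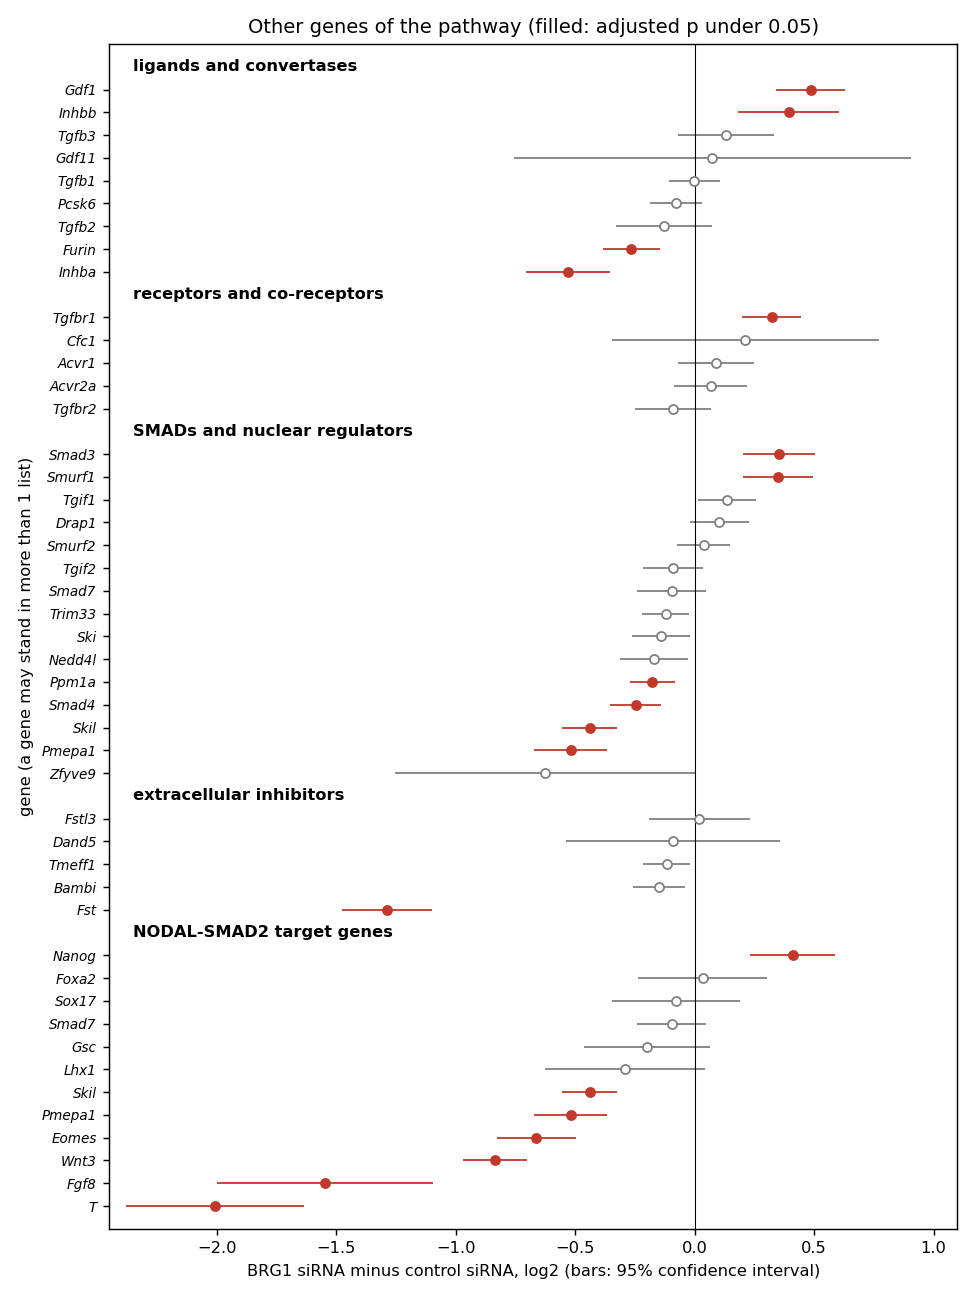
Log2 change (BRG1 siRNA minus control siRNA) of tested genes of the 5 pathway lists (all but 1), each with its 95% confidence interval; filled points passed the test. Fst stands apart from the other extracellular inhibitors at -1.29, the receptors lie between -0.091 and 0.32, and most filled target genes lie below 0.

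Of 906 genes ranked by their pattern over the 6 arrays, those most like Lefty1 were Fst, Irf1 and Rps6kl1. Each had a Pearson r of 0.999. Irf1 encodes an interferon-induced transcription factor and Rps6kl1 a kinase-like protein. For Nodal they were LOC666415 (r = 0.999), Cibar2 (r = 0.993) and Ajuba (r = 0.990), a LIM domain protein gene. The 906 genes were those well above background on every array with a range of at least 1 (log2). Lefty2 fell short of that range, so it was not ranked against Lefty1. The points share the arrays and the difference between groups, so r describes these 6 arrays only.

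**Figure D5:**
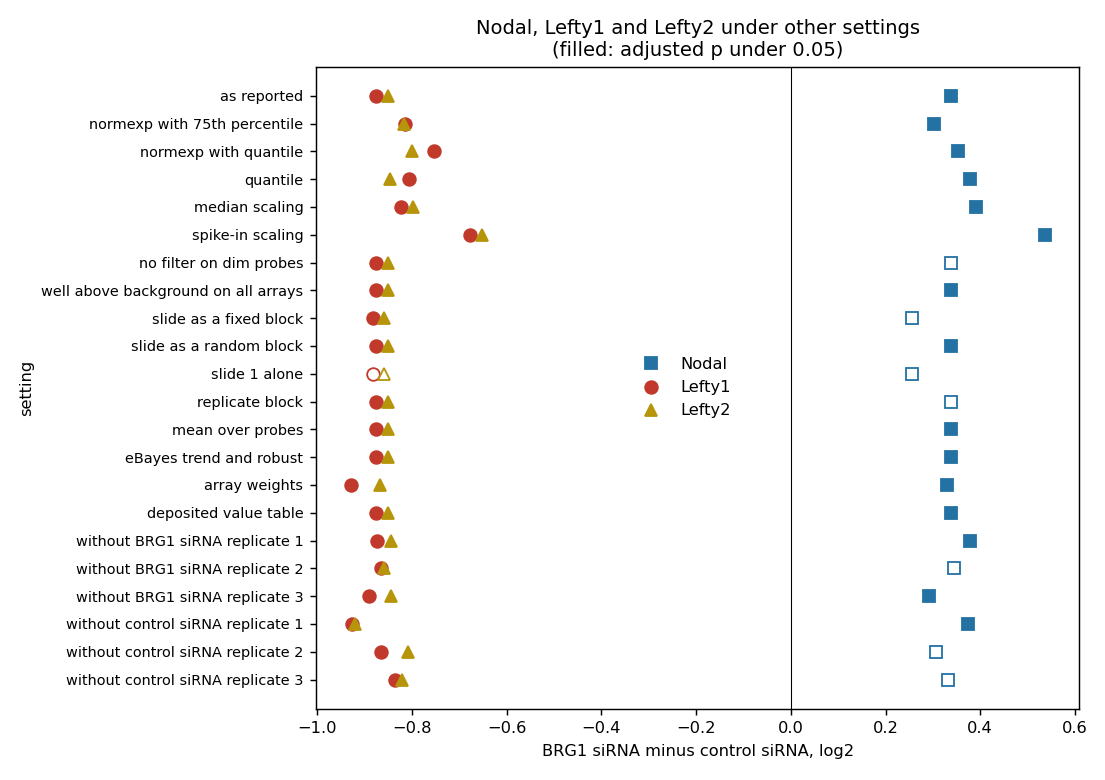
Log2 change (BRG1 siRNA minus control siRNA) of Nodal, Lefty1 and Lefty2 as reported and under 21 other settings; filled symbols had an adjusted p under 0.05. Lefty1 runs from -0.93 to -0.68 and Lefty2 from -0.92 to -0.65 with open symbols for slide 1 alone, and Nodal runs from 0.26 to 0.54 with 7 open symbols.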

How the data were processed

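The authors deposited scanner output, whose linear intensity per spot was extracted with Agilent Feature Extraction 9.5.3.1 per the file headers (9.5 per the submitters' processing notes). Spatial and multiplicative detrending were on and global background correction was off, per the file headers. The deposited value table equals the processed signal column (largest difference 0), so it is linear and uncentred. Its medians were 167, 162 and 173 for BRG1 siRNA replicates 1, 2 and 3, and 186, 181 and 173 for control replicates 1, 2 and 3.

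Log2 of the processed intensity minus the 75th percentile of each array was computed from the 43379 non-control spots. Outlier spots were left out, spots of a probe averaged, and each gene represented by its brightest probe. Testing needed a gene to be well above background on all 3 arrays of either group and was done with limma 3.58.1 (lmFit and eBayes, two-sided) in R 4.3.3, on 17758 genes, or on 26258 probes, with p-values adjusted after Benjamini-Hochberg (threshold 0.05). The fit was tested on simulated data.

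The genes and lists were chosen with earlier results of these data known. Named genes are the 9 pathway genes and Smarca4, other pathway genes past the threshold, others only with values, and the 3 genes most like Nodal and Lefty1. Names were updated by RefSeq accession through a GRCm38.p6 table (11920 by accession, 1765 by symbol, 4073 kept). Smad2 probe sequence is not shown. Some genes counted in the lists are not reported here by name. The alternatives were other background corrections, scalings, filters and probe summaries, slide and replicate blocks, eBayes options, array weights and each array left out.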

Additional observations from a re-analysis of the deposited data

How the results depend on the processing

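Lefty1 and Lefty2 kept their direction in all 21 alternatives and their call in 20, all but slide 1 alone, with 1 BRG1 siRNA array. Some alternatives, such as the deposited values, other filters and other eBayes options, use the same values and so could not change a direction. The count of these 9 genes past the threshold was 3, against 5 with normexp and quantile normalization, 5 with eBayes trend and robust, 0 with slide 1 alone, and 2 to 4 with each array left out. For the 10 probes it was 3, against 5 with normexp and quantile, with quantile, and with array weights, 0 with slide 1 alone, and 2 to 3 with each array left out. Other pathway genes numbered 18, against 11 with median scaling, 11 with no filter on dim probes, 8 with slide as a fixed block, 0 with slide 1 alone, 28 with array weights, and 12 to 20 with each array left out. All changed genes numbered 4139, against 1734 with median scaling, 1740 with no filter, 1392 with slide as a fixed block, 59 with slide 1 alone, 7361 with array weights, and 1641 to 4413 with each array left out (over 1.5 times fewer without any 1 array but BRG1 siRNA replicate 3). With the replicate block 1945 genes passed, and Nodal did not (limma adjusted p = 0.0696). Same-numbered arrays correlated at -0.31, 0.11 and -0.018 in their deviations from group means, and differently numbered ones at -0.34 to 0.34. With 3 arrays per group these values cannot settle whether the numbers pair the arrays.

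With spike-in scaling signs turned for Gdf3 (0.097), Acvr1b (0.047), Smad2 (0.14) and Ppm1a (0.020), and among named pathway genes not past the threshold for Smad7 (0.10), Dand5 (0.11), Bambi (0.048), Tmeff1 (0.082) and Sox17 (0.12). With slide as a fixed block they turned for Smad7 (0.012) and Foxa2 (-0.072). Acvr2b was -0.0044 and -0.0027 with normexp (75th percentile and quantile) and -0.049 (without BRG1 siRNA replicate 2) to 0.082 with each array left out. Foxh1 was -0.0063 with slide as a fixed block or slide 1 alone, and -0.0095 (without control replicate 2) to 0.12 with each array left out. Spike-in scaling moved the median of all genes to 0.16, and 84.1% of calls were then rises, against 42.3%. With quantile normalization the share was 48.9%. The causes were not tested. The dimmer Acvr1b probe, on which 2 BRG1 siRNA arrays were not well above background, ran from -0.76 to -0.22.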
